A study of Homo sapiens with 6 samples.

Results

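CALB1, which encodes the cytosolic calcium buffer calbindin, and 9 genes of calcium store handling were compared between OVCAR5 and OVCAR5R. The 9 genes encode calcium pumps (ATP2A2, ATP2B1, ATP2B4, ATP2C1), inositol trisphosphate (IP3) receptors (ITPR1, ITPR2, ITPR3), and the sensor and channel of store-operated calcium entry (STIM1, ORAI1). CALB1 was chosen by its measured values, since it stood out as lower in OVCAR5R, so its values are a description without a test. The other 9 were chosen by function. All 10 were among the 12308 listed rows, which hold 12305 different gene symbols and are called the listed genes below.

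OVCAR5 is a p53 null line of human ovarian cancer cells in which the BRCA genes are wild type. OVCAR5R was derived from it by selection over months in rising concentrations of prexasertib (Prex), an inhibitor of the checkpoint kinase CHK1, up to 3 µM. It was kept at 2 µM Prex and then grown without the drug for several days ahead of experiments, and the sources used here do not say whether it is 1 clone. RNA-seq of total RNA was performed on 3 cultures of each line, both in RPMI1640 medium with serum and neither on Prex at harvest as the methods describe it.

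Cells keep calcium low in the cytosol and high in the endoplasmic reticulum (ER). Pumps of the SERCA type fill the ER, plasma membrane calcium ATPases (PMCA) expel calcium from the cell, and IP3 receptors release the stored calcium when IP3 binds. Emptying of the store is sensed by STIM1 in the ER membrane, which opens ORAI1 in the plasma membrane, while buffers such as calbindin bind free calcium in the cytosol.

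The deposited values are a linear signal that the authors had normalized, in which most low values of a library are whole multiples of the worth of 1 estimated read. In units of 1e6, the estimated reads on the listed genes lay between 35.8 and 41.3 per library in OVCAR5 and between 50.3 and 55.1 in OVCAR5R. OVCAR5 replicate 2 stood apart, and whether it is a different state of the culture or another sample than labelled could not be settled from these values, a doubt that bears on each OVCAR5 mean, SD, and share below. Its log2(value + 1) profile correlated at 0.898 and 0.883 with the other OVCAR5 libraries, which correlated at 0.955 with each other, while pairs of OVCAR5R libraries lay between 0.947 and 0.963. Of 8 epithelial marker genes 6 were listed, and their summed value was 17308 in OVCAR5 replicate 2, 2467 and 2388 in the other OVCAR5 libraries, and between 3605 and 4816 in OVCAR5R. EPCAM, an epithelial adhesion protein, was at 597 in OVCAR5 replicate 2 and between 11.9 and 31.7 in the other 5 libraries. The sum was mostly KRT8 and KRT18. In each OVCAR5R library EPCAM, KRT7, KRT8, and KRT18 were above OVCAR5 replicates 1 and 3. KRT19 and CLDN4 went the other way, lower in each OVCAR5R library than in each OVCAR5 library. By replicate, KRT19 was at 9.99, 1341, and 10.7 in OVCAR5 and 3.09, 3.87, and 6.04 in OVCAR5R. CLDN4 lay between 133 and 464 and then between 68.6 and 131. The 3 listed of 6 Müllerian markers (PAX8, WT1, MSLN) were low, with sums between 5.05 and 17.5. No listed marker of the epithelial, Müllerian, fibroblast, or leukocyte lists was at 0 in all libraries, with fibroblast sums (COL1A1 and PDGFRB, 2 of 6 listed) between 1.77 and 15.4 in OVCAR5 and between 6.95 and 9.99 in OVCAR5R, leukocyte sums (CD14 and CD68, 2 of 4 listed) between 56.5 and 71.8 and between 74.4 and 76.1, and 0 of 3 endothelial markers among the listed genes. The leukocyte sum was mostly CD68, and PTPRC and CD3E were not listed. CD14 lay between 3.55 and 20.2 in OVCAR5 and between 2.02 and 5.67 in OVCAR5R. OVCAR5 replicate 2 had the lowest value of its line for 7 of the 9 pump, receptor, and entry genes and the lowest value of all 6 libraries for 5 of them. Fold changes of these 9 genes that it moves by over 1.5 times are therefore also given without it. So are the counts among the 9 and among the calcium genes grouped by role, whose single fold changes are given with all 6 libraries only.

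CALB1 lies on chromosome 8 (GRCh38, 90058608 to 90095475, minus strand, GENCODE release 29). In order of replicate number, here and below, the normalized value of CALB1 was 61.1, 116, and 92.5 in the OVCAR5 libraries and 4.96, 1.83, and 1.27 in the OVCAR5R libraries. The lowest OVCAR5 library was far above the highest OVCAR5R library. The OVCAR5 mean of 90.0 ± 27.7 was 33.5-fold above the OVCAR5R mean of 2.68 ± 1.99 (mean ± SD, n = 3 libraries per line, here and below), with a log2 fold change of -4.71 on the log2(value + 1) scale, which understates changes of low genes. The OVCAR5 mean exceeded that of 79.1% of listed genes, and the OVCAR5R mean exceeded that of 7.03%. CALB1 was still measured above 0 in each OVCAR5R culture, from an estimated 263, 101, and 68 reads, against 2509, 4019, and 3651 in OVCAR5. The relative spread between OVCAR5R cultures was the larger, with a coefficient of variation of 74.1% against 30.8%. OVCAR5 replicate 2, the library with the highest epithelial markers, also had the highest CALB1 value, and without it the log2 fold change was -4.50. The part of those markers in the difference was not tested. In these bulk samples, fewer CALB1-expressing cells and less CALB1 RNA per cell cannot be told apart.

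**Figure D1:**
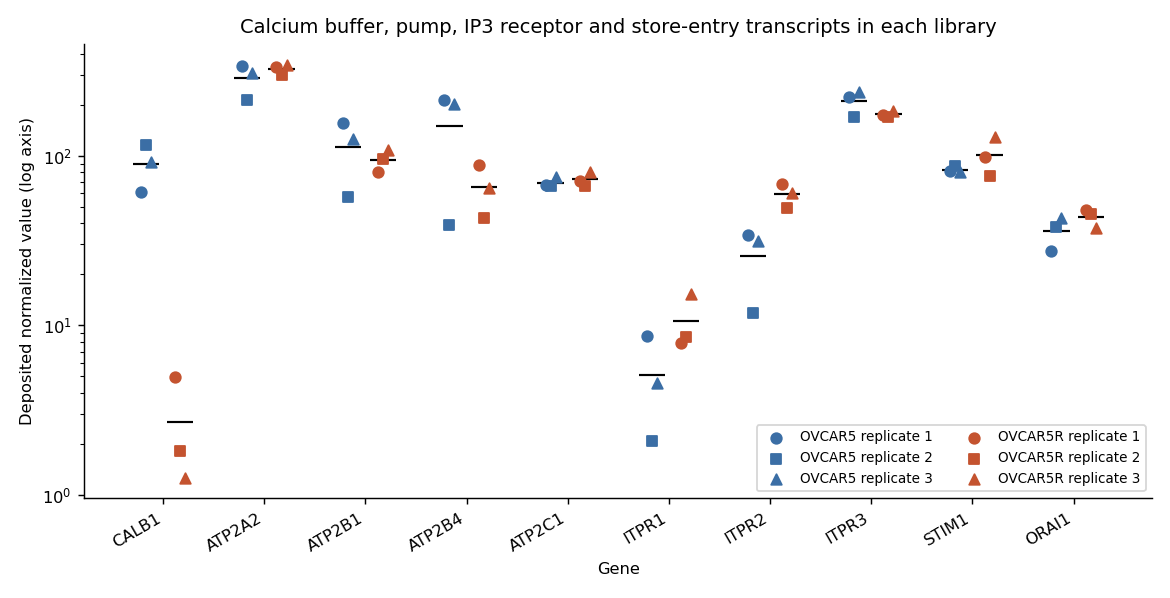
Normalized value (log axis) of CALB1 and the 9 calcium store handling genes, with a point for each OVCAR5 (blue) and OVCAR5R (orange) library, a marker shape for each replicate number, and a black bar at the mean of the 3 libraries. CALB1 lay between 61.1 and 116 in OVCAR5 and between 1.27 and 4.96 in OVCAR5R, while of the other genes ITPR2 was the one whose libraries did not overlap.

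The pumps, IP3 receptors, and entry genes were compared by limma on log2(value + 1), with p-values adjusted over all 11766 genes tested by the Benjamini-Hochberg method. Of the 9 genes, 0 had an adjusted p under 0.05, a threshold that 0.119% of all genes tested passed. At an unadjusted p under 0.05, 1 of the 9 was higher in OVCAR5R (ITPR2) and 0 were lower, against 4.14% of all genes higher and 6.25% lower. Values of the libraries did not overlap for 1 gene that was higher (ITPR2) and for 0 that were lower, against 8.4% and 8.18% of all genes. By their means 6 were higher and 3 lower, with a median log2 fold change of 0.22, against -0.01 over all genes. Without OVCAR5 replicate 2, 0 of the 9 had an adjusted p under 0.05, while at an unadjusted p under 0.05 1 was higher (ITPR2) and 2 were lower (ATP2B1 and ATP2B4), against 4.32% and 6.52% of all genes. Values then did not overlap for 1 higher gene (ITPR2) and 3 lower genes (ATP2B1, ATP2B4, and ITPR3), against 13.8% and 13.7% of all genes.

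ITPR2, on chromosome 12 (26336515 to 26833198, minus strand), encodes the type 2 IP3 receptor. Its value was 34.1, 11.9, and 31.4 in OVCAR5 and 68.5, 49.1, and 60.3 in OVCAR5R, so each resistant culture exceeded each parental one. The mean was 25.8 ± 12.1 in OVCAR5 and 59.3 ± 9.75 in OVCAR5R, 2.30-fold higher. This gave a log2 fold change of 1.29 (SE 0.39, 95% interval 0.40 to 2.18, unadjusted p = 0.0102 and adjusted p = 0.317 by limma), which did not pass the threshold. OVCAR5 replicate 2 was the lowest library. Without it the log2 fold change was 0.83 with an adjusted p of 0.252 by limma.

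ITPR1, on chromosome 3 (4493345 to 4847840, plus strand), encodes the type 1 receptor, best known from cerebellar neurons. Its value was 8.67, 2.09, and 4.56 in OVCAR5 and 7.92, 8.54, and 15.2 in OVCAR5R. OVCAR5 replicate 1 lay above OVCAR5R replicates 1 and 2, and the groups overlapped. OVCAR5R differed by a log2 fold change of 1.02 (SE 0.45, 95% interval -0.03 to 2.06, adjusted p = 0.489 by limma). It was 1.43 without OVCAR5 replicate 1, and 0.60 without OVCAR5 replicate 2, where an estimated 72 reads stood behind the value.

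ITPR3, on chromosome 6 (33620365 to 33696574, plus strand), encodes the type 3 receptor, which is common in epithelial cells. Its value was 222, 169, and 239 in OVCAR5 and 174, 169, and 185 in OVCAR5R. The OVCAR5R libraries lay within the OVCAR5 range at its lower end, apart from replicate 2 at the level of OVCAR5 replicate 2. The lines differed by a log2 fold change of -0.24 (SE 0.20, 95% interval -0.71 to 0.23, adjusted p = 0.714 by limma). Without OVCAR5 replicate 2 it was -0.39 (SE 0.18, adjusted p = 0.504 by limma), and each OVCAR5R library was then below the other OVCAR5 libraries.

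Levels of different genes were compared after division by the length of their merged exons in kilobases (kb). The 3 IP3 receptors together summed to 23.9 ± 4.89 per kb in OVCAR5 and 23.9 ± 1.62 in OVCAR5R. ITPR2 made up 11.4%, 5.65%, and 10.0% of this sum in the OVCAR5 libraries and 24.6%, 19.4%, and 20.9% in the OVCAR5R libraries. ITPR3, the main receptor in each library, made up 85.9%, 93.4%, and 88.6% and then 72.7%, 77.4%, and 74.2%. Neither share overlapped between the lines, and each had p = 0.1 by a two-sided exact permutation test over libraries, the smallest value that 3 against 3 can give. The ITPR2 to ITPR3 ratio per kb was 0.102 ± 0.0373 in OVCAR5 and 0.290 ± 0.0446 in OVCAR5R, with the same exact permutation p of 0.1. The ITPR1 share was 1.65 ± 0.923% and 3.56 ± 1.18%, with overlapping libraries and an exact permutation p of 0.2. The shares of a sum are tied to each other, so they are not separate results.

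**Figure D2:**
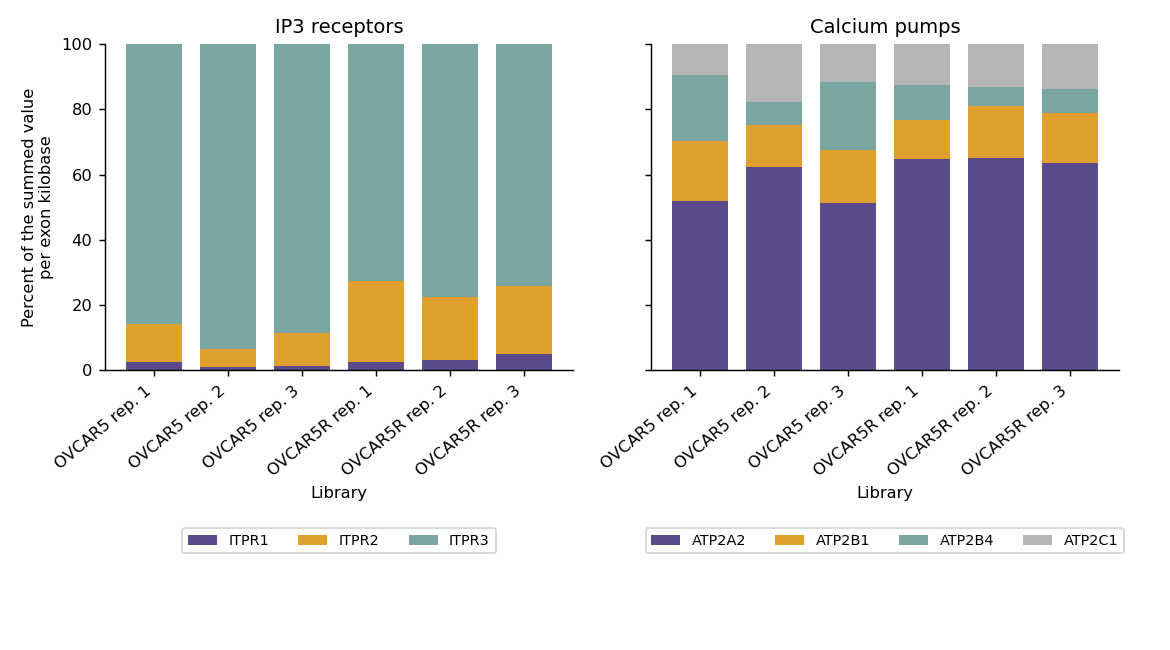
Percent of the summed value per exon kilobase taken by each IP3 receptor gene (left) and each calcium pump gene (right), with a stacked bar for each library. The ITPR2 part was between 5.65% and 11.4% in OVCAR5 and between 19.4% and 24.6% in OVCAR5R, and the ATP2A2 part was between 51.3% and 62.2% and then between 63.5% and 65.1%.

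The 3 of the 10 genes with 1 entry in the RefSeq promoter table were ITPR1, ITPR3, and ATP2B4. ITPR1 and ITPR3 were at the bottom and the top of the IP3 receptor levels. ATP2B4 was the pump with the widest spread between cultures. The sequences just upstream of the start in that table are shown for these genes because of their single entry. The sequences are windows of 250 bases on the plus strand of GRCh38.p14, at chr3:4493098-4493347 for ITPR1, chr6:33621072-33621321 for ITPR3, and chr1:203626582-203626831 for ATP2B4. That table and GENCODE place the starts of genes differently, so the ITPR3 and ATP2B4 windows lie inside the GENCODE genes given here. Capitals mark matches on either strand to an Sp1 core, searched as GGGCGG, an NFAT core, searched as GGAAA, the TATA box, searched as TATANA, or a CCAAT box, searched by those letters, and no match overlaps another here.
ITPR1: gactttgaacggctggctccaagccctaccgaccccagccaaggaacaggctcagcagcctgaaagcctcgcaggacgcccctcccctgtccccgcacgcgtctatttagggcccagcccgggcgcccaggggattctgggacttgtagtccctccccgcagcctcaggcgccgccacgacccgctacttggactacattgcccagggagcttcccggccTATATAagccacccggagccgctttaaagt
ITPR3: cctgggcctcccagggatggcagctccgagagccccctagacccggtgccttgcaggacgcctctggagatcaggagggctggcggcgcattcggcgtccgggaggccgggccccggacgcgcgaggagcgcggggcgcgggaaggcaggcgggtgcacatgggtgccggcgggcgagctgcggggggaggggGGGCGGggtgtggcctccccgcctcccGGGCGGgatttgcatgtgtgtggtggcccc
ATP2B4: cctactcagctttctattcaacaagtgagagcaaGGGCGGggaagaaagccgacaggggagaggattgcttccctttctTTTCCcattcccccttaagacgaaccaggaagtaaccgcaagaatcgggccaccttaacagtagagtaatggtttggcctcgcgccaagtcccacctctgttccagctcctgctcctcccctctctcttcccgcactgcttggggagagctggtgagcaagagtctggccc
The ITPR3 window had 2 matches to the Sp1 core, 76.8% G and C, and 26 CpG dinucleotides, against medians of 58% and 11 over 35116 promoters. The ITPR1 window had 1 match to the TATA box, 64.8% G and C, and 17 CpG dinucleotides. The ATP2B4 window had 1 match each to the Sp1 core and the NFAT core, 55.6% G and C, and 8 CpG dinucleotides. Such matches are common, since 42.6% of promoters held the Sp1 core, 55.6% the NFAT core, 17.7% the TATA box, and 32% the CCAAT box. No readout of binding or chromatin was part of these data, and the matches are letters in a window.

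Of the pumps, ATP2B4, on chromosome 1 (203626561 to 203744081, plus strand), encodes PMCA4. Its value was 212, 39.0, and 201 in OVCAR5 and 88.8, 42.8, and 64.5 in OVCAR5R. OVCAR5 replicates 1 and 3 exceeded each OVCAR5R library, and OVCAR5 replicate 2 was below all of them, 5.43-fold below replicate 1. This gave a log2 fold change of -0.91 (SE 0.62, 95% interval -2.35 to 0.52, adjusted p = 0.641 by limma). Without OVCAR5 replicate 2 it was -1.70 (SE 0.31, adjusted p = 0.119 by limma), still short of the threshold. That library held the highest epithelial markers, and their part in its ATP2B4 value was not tested.

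ATP2B1, on chromosome 12 (89588049 to 89709300, minus strand), encodes PMCA1, a housekeeping calcium exporter. Its value was 156, 57.0, and 125 in OVCAR5 and 80.5, 95.5, and 108 in OVCAR5R. OVCAR5 replicate 2 was again the lowest of the 6 libraries, and OVCAR5R lay inside the range of OVCAR5. OVCAR5R differed by a log2 fold change of -0.14 (SE 0.36, 95% interval -0.97 to 0.70, adjusted p = 0.928 by limma), and it was -0.57 without OVCAR5 replicate 2 and 0.15 without OVCAR5 replicate 1, so its direction rested on single libraries. The 2 PMCA genes together summed to 44.5, 12.1, and 39.1 per kb in OVCAR5 and 20.7, 17.7, and 21.9 in OVCAR5R, with a two-sided exact permutation p of 0.4.

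ATP2A2, on chromosome 12 (110280756 to 110351093, plus strand), encodes SERCA2, which fills the ER store. Its value was 338, 213, and 306 in OVCAR5 and 334, 301, and 345 in OVCAR5R. The groups overlapped, and OVCAR5 replicate 2 was the only library under 300. The lines differed by a log2 fold change of 0.22 (SE 0.23, 95% interval -0.31 to 0.74, adjusted p = 0.776 by limma), and 0.02 without that library.

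As a share of the summed pump value per kb, ATP2A2 made up 51.8%, 62.2%, and 51.3% in OVCAR5 and 64.6%, 65.1%, and 63.5% in OVCAR5R. These shares did not overlap, with an exact permutation p of 0.1, the smallest possible. The ATP2B4 share was 16.0 ± 7.76% in OVCAR5 and 7.91 ± 2.50% in OVCAR5R, with overlapping libraries and an exact permutation p of 0.3. The summed pump value per kb was 93.7 ± 29.1 and 89.6 ± 7.20.

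ATP2C1, on chromosome 3 (130850595 to 131016712, plus strand), encodes the Golgi calcium and manganese pump SPCA1. Its value was 67.4, 66.4, and 74.9 in OVCAR5 and 71.2, 66.2, and 80.3 in OVCAR5R. The libraries of both lines covered nearly the same range. This gave a log2 fold change of 0.06 (SE 0.19, 95% interval -0.37 to 0.49, adjusted p = 0.941 by limma). It was 0.026 without OVCAR5 replicate 2 and turned to -0.016 without OVCAR5R replicate 3.

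STIM1, on chromosome 11 (3854527 to 4093210, plus strand), encodes the ER calcium sensor. Its value was 80.9, 87.5, and 79.7 in OVCAR5 and 97.8, 76.0, and 128 in OVCAR5R. OVCAR5R replicates 1 and 3 were above the OVCAR5 libraries and replicate 2 was below them. OVCAR5R differed by a log2 fold change of 0.25 (SE 0.23, 95% interval -0.28 to 0.78, adjusted p = 0.743 by limma), which was 0.43 without OVCAR5R replicate 2 and 0.06 without OVCAR5R replicate 3.

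ORAI1, on chromosome 12 (121626550 to 121642677, plus strand), encodes the pore of the entry channel. Its value was 27.3, 38.0, and 43.1 in OVCAR5 and 47.8, 45.5, and 37.3 in OVCAR5R. The groups overlapped, since OVCAR5R replicate 3 lay below OVCAR5 replicates 2 and 3. The lines differed by a log2 fold change of 0.28 (SE 0.24, 95% interval -0.27 to 0.82, adjusted p = 0.714 by limma), which was 0.10 without OVCAR5 replicate 1.

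**Figure D3:**
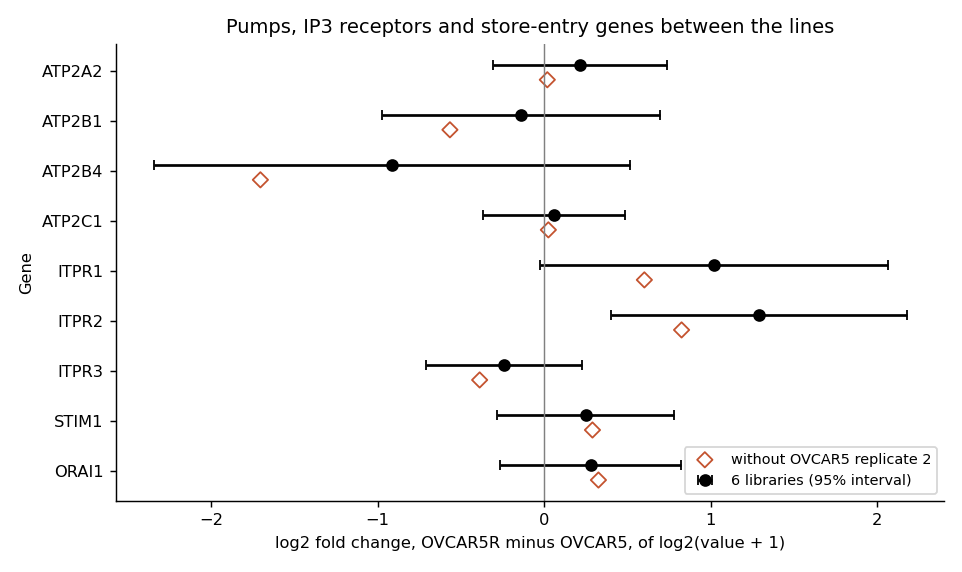
The log2 fold change (OVCAR5R minus OVCAR5, of log2(value + 1)) of the 9 genes other than CALB1, with black points and bars for the value and 95% interval from 6 libraries and open diamonds for the value without OVCAR5 replicate 2. The interval of ITPR2 (0.40 to 2.18) was the one that did not include 0, and the diamond of ATP2B4 lay at -1.70 against -0.91 with all libraries.

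Per kb of exon, the order of the 10 genes in OVCAR5 was ATP2A2 (50.5 ± 11.4), CALB1 (34.1 ± 10.5), ORAI1 (24.2 ± 5.40), ITPR3 (21.3 ± 3.69), STIM1 (18.0 ± 0.917), ATP2B4 (16.5 ± 10.6), ATP2B1 (15.4 ± 6.92), ATP2C1 (11.3 ± 0.761), ITPR2 (2.25 ± 1.06), and ITPR1 (0.414 ± 0.270). From ATP2A2 down to ATP2C1 each gene overlapped the next over its libraries, whereas ITPR2 lay below ATP2C1 and ITPR1 below ITPR2 with no overlap. In OVCAR5R the order was ATP2A2 (57.7 ± 4.00), ORAI1 (29.1 ± 3.68), STIM1 (22.0 ± 5.73), ITPR3 (17.8 ± 0.830), ATP2B1 (13.0 ± 1.91), ATP2C1 (11.8 ± 1.16), ATP2B4 (7.15 ± 2.52), ITPR2 (5.18 ± 0.850), CALB1 (1.02 ± 0.754), and ITPR1 (0.856 ± 0.328). Here the neighbours ORAI1 and STIM1, STIM1 and ITPR3, ATP2B1 and ATP2C1, ATP2B4 and ITPR2, and CALB1 and ITPR1 overlapped. CALB1 thus stood beside the SERCA2 gene in the parental line and beside the least abundant receptor in the resistant line.

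A total of 111 other calcium genes were grouped by role. Of these, 81 were among the listed genes, 78 were tested, and 0 had an adjusted p under 0.05 by limma. At an unadjusted p under 0.05, 2 (2.56%) were higher and 7 (8.97%) lower in OVCAR5R, against 4.14% and 6.25% of all genes. Libraries did not overlap for 3 higher (3.85%) and 8 lower genes (10.3%), against 8.4% and 8.18% of all genes. These were the ones with an unadjusted p under 0.05 plus PPP3CC (higher) and PLCG2 (lower), both named after their values were seen. The balance of directions depended on the scaling. With libraries scaled to the same sum, 3 (3.85%) were higher and 4 (5.13%) lower at an unadjusted p under 0.05. Over all genes these shares were 5.77% and 4.9%, as 487 higher and 735 lower became 679 and 577. With this scaling 8 (10.3%) were higher and 7 (8.97%) lower without overlap, against 11.6% and 6% of all genes. Without OVCAR5 replicate 2, 3 (3.85%) were higher and 8 (10.3%) lower at an unadjusted p under 0.05. The shares over all genes were then 4.32% and 6.52%. Without that library 9 (11.5%) were higher and 17 (21.8%) lower without overlap, against 13.8% and 13.7% of all genes. By their means 33 were higher and 45 lower, with a median log2 fold change of -0.05, against -0.01 over all genes.

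Among cytosolic buffers and calmodulin (4 tested), CALB2, which encodes the CALB1 relative calretinin, was at 91.3, 93.1, and 223 in OVCAR5 and 59.8, 76.8, and 38.5 in OVCAR5R. Each OVCAR5R library was below each OVCAR5 library, with a log2 fold change of -1.13 (SE 0.40, adjusted p = 0.394 by limma). CALM3, which encodes calmodulin, was the highest of this list at 0.09. Among calcium binders of the ER and Golgi lumen (10 tested, median -0.11), the log2 fold change ran from -0.59 for NUCB2 (adjusted p = 0.425), without overlap, to 0.39 for CALU, which encodes calumenin (adjusted p = 0.644).

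Among other pumps and pump regulators (3 tested), TMX1, which encodes an ER thioredoxin-related protein, was at 153, 97.3, and 130 in OVCAR5 and 206, 177, and 208 in OVCAR5R. Its libraries did not overlap, with a log2 fold change of 0.65 (SE 0.22, adjusted p = 0.375 by limma), and TMEM165 was the lowest of the list at -0.10. The 2 sodium-calcium exchangers tested had a log2 fold change of 0.27 (SLC8B1, the mitochondrial exchanger) and -0.27 (SLC24A1).

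Among other release and leak channels and IP3 receptor partners (10 tested), TPCN1, which encodes a channel of endosomes and lysosomes, was at 162, 122, and 112 in OVCAR5 and 51.7, 104, and 76.4 in OVCAR5R. It was lower without overlap, with a log2 fold change of -0.80 (SE 0.29, adjusted p = 0.401 by limma), while the ER leak channel gene TMCO1 had 0.30. IP3 production and removal (12 tested, median -0.23) ran from -0.85 for the phospholipase gene PLCE1 to 0.84 for PLCB4, both with overlapping libraries. Other store-operated entry genes (10 tested, median -0.09) ran from -0.81 for ORAI3, an ORAI1 paralog, to 0.55 for TRPC1, with 0 genes free of overlap.

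Among genes of mitochondrial calcium uptake (10 tested, median 0.02), MCUB and SMDT1, which encode a subunit and a regulator of the uniporter, were lower without overlap, with a log2 fold change of -0.53 and -0.86 (adjusted p = 0.476 and 0.464 by limma). VDAC3, an outer membrane channel gene, had the lowest value of the list at -1.04, but OVCAR5R replicate 1 was at 178 and the other OVCAR5R libraries at 54.0 and 51.2, so the groups overlapped. LETM1 was the highest at 0.49.

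The calcium-dependent kinases, calcineurin, and NFAT list (17 tested, median -0.07) held the outermost values in both directions. RCAN1, a calcineurin regulator whose transcription is induced by calcineurin and NFAT signaling, was at 101, 90.8, and 140 in OVCAR5 and 39.5, 61.5, and 31.5 in OVCAR5R. No library overlapped, and the log2 fold change was -1.33 (SE 0.29, adjusted p = 0.211 by limma). CAMK2D, a calmodulin-dependent kinase gene, was at 77.2, 25.8, and 50.7 in OVCAR5 and 17.5, 22.5, and 20.8 in OVCAR5R, with a log2 fold change of -1.17 (SE 0.37, adjusted p = 0.344 by limma). CAMK1 was higher, at 9.34, 5.14, and 6.43 in OVCAR5 and 12.2, 16.4, and 16.5 in OVCAR5R, with a log2 fold change of 1.03 (SE 0.28, adjusted p = 0.298 by limma). None of these passed the adjusted threshold.

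**Figure D4:**
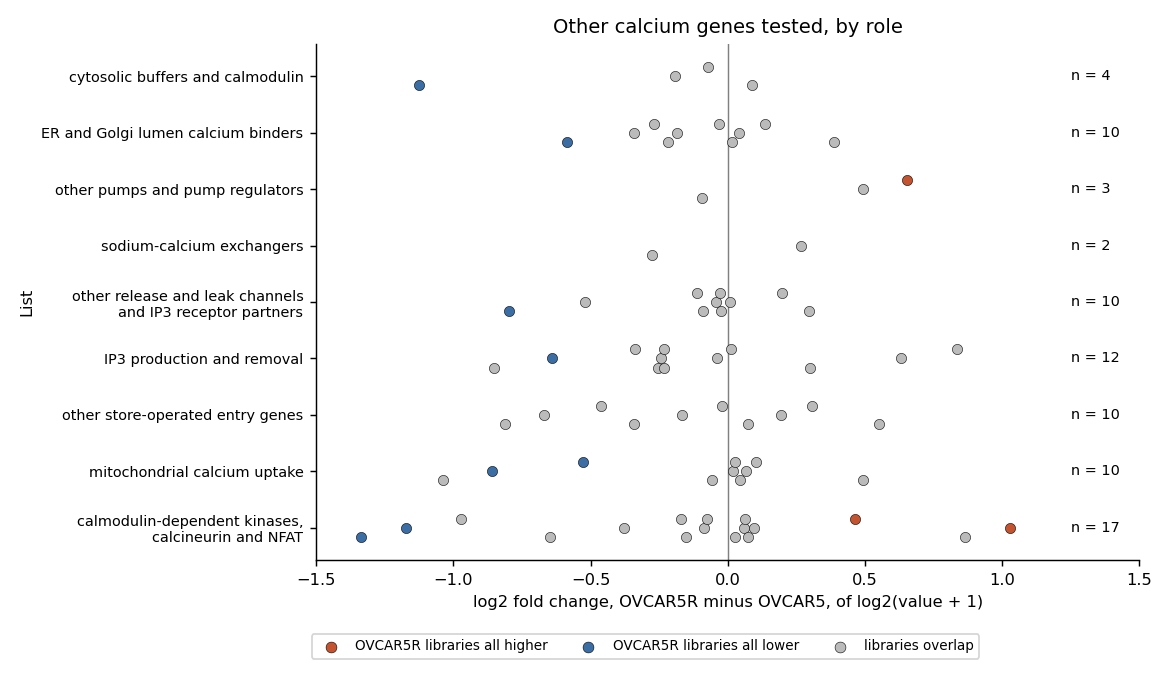
The log2 fold change (OVCAR5R minus OVCAR5, of log2(value + 1)) of the 78 other calcium genes tested, with a row for each list, a point for each gene, and the number tested at the right. Points in orange or blue are the 3 genes with every OVCAR5R library higher and the 8 with every one lower, and grey points are genes whose libraries overlap.

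The genes whose profile over the 6 libraries was most like that of CALB1 were found by the root mean square distance between centered log2 values, as a description. They included S100A4 (distance 0.770, Pearson's r 0.952), CD74 (0.845, 0.957), STS (0.848, 0.964), HLA-DRA (0.903, 0.936), and MUC5AC (0.973, 0.983), over libraries that share the OVCAR5 and OVCAR5R grouping. S100A4 encodes another calcium-binding protein, and was at 70.0, 258, and 134 in OVCAR5 and 5.54, 8.51, and 9.15 in OVCAR5R. HLA-DRA, an MHC class II gene, was at 10.5, 133, and 32.8 in OVCAR5 and between 0.181 and 0.745 in OVCAR5R. For S100A4, CD74, HLA-DRA, and MUC5AC, OVCAR5 replicate 2 was the highest library, as it was for CALB1. Of the 9 store handling genes, the nearest to CALB1 was ATP2B4 at a distance of 2.17 and the farthest was ITPR2 at 3.10.

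The 29 tested genes that lie within 5 Mb of CALB1 ranged from -1.08 to 0.62 in log2 fold change, around a median of -0.13. By their means 6 were higher and 23 lower, against 5791 higher and 5975 lower of all 11766 genes tested. The log2 fold change of CALB1, -4.71, lay below all of its 29 neighbours. Of these neighbours, 0 had an adjusted p under 0.05 by limma, and 2 were lower without overlap (6.90%, against 8.18% of all genes). They were DECR1, the nearest tested gene at a distance of 0.0572 Mb, with a log2 fold change of -0.83 (adjusted p = 0.243 by limma), and TRIQK with -0.87 (adjusted p = 0.306 by limma). The 28 tested genes within 5 Mb of ITPR2 had a median of 0.16 and ranged from -2.15 to 0.81, with 21 higher by their means, and the ITPR2 value of 1.29 lay above all of them. ITPR1, at 1.02, likewise lay above the 14 tested genes within 5 Mb of it, of which the highest was at 0.57. Relative to the mean of each gene over the OVCAR5 libraries, the median of the ITPR2 neighbours was -0.31 in OVCAR5 replicate 2. It was between 0.11 and 0.26 in the other 5 libraries. On the same scale, the median of the CALB1 neighbours was 0.28, -0.39, and 0.20 in OVCAR5. In OVCAR5R it was 0.08, -0.36, and -0.20.

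**Figure D5:**
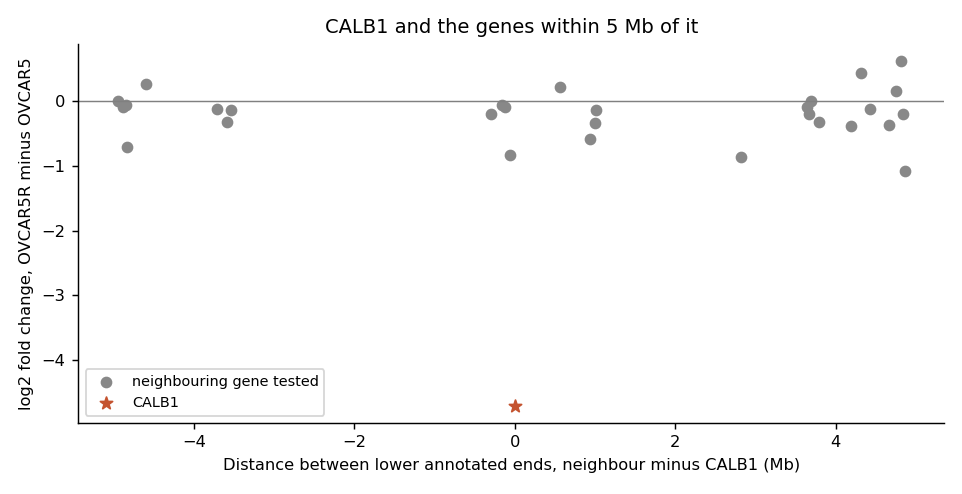
The log2 fold change (OVCAR5R minus OVCAR5) of CALB1 (star) and of the 29 tested genes within 5 Mb of it (points), against the distance in Mb between the lower annotated ends of the genes. The neighbours lay between -1.08 and 0.62, and CALB1 at -4.71.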

How the data were processed

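RNA-seq of total RNA from 3 cultures each of OVCAR5 and OVCAR5R was analyzed from values that the authors deposited. The authors quartile normalized the data and deposited a linear normalized signal per gene symbol and library, with the build given as hg38 in the submitters' processing notes. The aligner and counter are not given in the sources used here. Within a library, 65.0% to 68.3% of positive values, the highest values left out, were whole multiples (tolerance 0.01) of a step of 0.0181 to 0.0290. The step was taken as 1 estimated read. Since the other values were not whole multiples, count tests were not used. An identical row was kept once.

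Genes that reached a value of 1 or more in 3 or more of the 6 libraries were tested on log2(value + 1) with limma version 3.58.1 in R version 4.3.3 (eBayes with trend, two-sided, no covariates), adjusted by the Benjamini-Hochberg method at 0.05, and the script was tested on simulated data. Single shares were compared by exact permutation tests. The study's rank test is represented here by overlap of libraries. The members and lists were chosen with earlier results of these data known. Genes named were the members, the highest and lowest gene of each list, listed genes with an adjusted p under 0.05 or an unadjusted p under 0.05 without overlap, and the 6 genes most like CALB1, of which 1 is not reported here. DECR1, TRIQK, PPP3CC, PLCG2, and PIEZO1 were named after their values were seen.

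Positions and exon lengths came from GENCODE release 29 on GRCh38 (12233 of 12305 symbols found, 99.4%). Upstream sequences came from the RefSeq table of GRCh38.p14, in which 7 of the 10 genes matched and 3 had 1 entry. Intervals are 95% intervals of limma. The labels name separate cultures by replicate number only, so p-values measure the spread between these cultures. The alternatives were quantile normalization, scaling to the same sum, a pseudocount of 0.1, no filter or a mean of at least 10, limma without trend, a replicate block, and leaving out each library. Plots used matplotlib 3.10.9 and Python 3.11.15.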

Additional observations from a re-analysis of the deposited data

How the results depend on the processing

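The log2 fold change of CALB1 lay between -5.20 (pseudocount of 0.1) and -4.42 (without OVCAR5R replicate 3) over all alternatives. ITPR2 stayed higher in OVCAR5R, between 0.83 and 1.55, and ATP2B4 lower, between -1.70 and -0.50. ATP2B1 ranged from -0.57 (without OVCAR5 replicate 2) to 0.15 (without OVCAR5 replicate 1) when a library was left out, and ATP2C1 from -0.016 (without OVCAR5R replicate 3) to 0.12. The other members kept their direction, but STIM1 ranged from 0.06 to 0.43 and ORAI1 from 0.10 to 0.42 when a library was left out. No member tested had an adjusted p under 0.05 by limma under any alternative, the smallest being 0.119 for ATP2B4 without OVCAR5 replicate 2. ITPR1 ranged from 0.60 (without OVCAR5 replicate 2) to 1.43 (without OVCAR5 replicate 1), and it had no value with a mean of at least 10. Its unadjusted limma p was 0.0546 with all 6 libraries. It was 0.0414 with quantile normalization, 0.04995 without trend, and 0.0133 without OVCAR5 replicate 1 (adjusted p = 0.446, 0.471, and 0.523 by limma).

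Over all genes, 14 had an adjusted p under 0.05, 5 with the replicate block, and between 0 (without OVCAR5R replicate 3) and 29 (without OVCAR5 replicate 2) when a library was left out, which leaves fewer samples. Of the other calcium genes, 0 passed under any alternative. Those without overlap numbered 11, and between 12 and 26 when a library was left out, since fewer libraries must be separated. Over all genes the shares without overlap rose as well, from 8.4% higher and 8.18% lower. They were between 12.1% and 16.8% higher and between 12.1% and 16.4% lower when a library was left out. The deviations of same-numbered libraries from the mean of their line correlated at -0.004, 0.176, and -0.119. Libraries of different number correlated between -0.193 and 0.251. Whether the replicate numbers pair the cultures is not given by the labels, and so few libraries cannot settle it. With the replicate block 10 other calcium genes had an unadjusted p under 0.05, 4 higher (5.13%) and 6 lower (7.69%). Over all genes the block gave 4% higher and 7.09% lower. Without the block 9 had passed, and 7 were the same genes. ATP2B4 had an unadjusted limma p of 0.0452 (adjusted p = 0.437) with the block. The block changed no adjusted call among the members. Depth is lowest behind ITPR1 and CALB1, with an estimated 72 and 68 reads in their lowest libraries.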

Other observations

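Genes of cation channels, calcium channel subunits, and nucleotide receptors of the plasma membrane, grouped by gene symbol after the data were seen, were also compared. Not all of them encode a calcium-permeable pore, and TRPC1 was also counted among the store-operated entry genes above. Of 19 listed, 15 were tested, with a median log2 fold change of -0.02, and 0 had an adjusted p under 0.05 by limma. At an unadjusted p under 0.05, 0 were higher and 1 of the 15 was lower, against 4.14% and 6.25% of all genes. Libraries did not overlap for 0 higher genes and for the same 1 lower gene, against 8.4% and 8.18% of all genes. This was PIEZO1, which encodes a mechanically gated cation channel. It was at 300, 235, and 363 in OVCAR5 and 177, 191, and 118 in OVCAR5R, with no overlap and a log2 fold change of -0.89 (SE 0.26, adjusted p = 0.309 by limma).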
